A study of Homo sapiens with 12 samples.

Results

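The SNAIL, ZEB and TWIST transcription factors, the homeobox factor PRRX1 and the identity markers vimentin, N-cadherin and E-cadherin were followed in HT1080, an established cell line from a human fibrosarcoma that carries mutant NRAS. The 10 genes (SNAI1, SNAI2, TWIST1, TWIST2, ZEB1, ZEB2, PRRX1, VIM, CDH2 and CDH1) were chosen by symbol, with earlier results of these data known. All 10 were found among the 55243 symbols with a single entry in the expression table. A filter kept the 14722 genes that reached 1 TPM in 3 or more of the 12 libraries, and 8 of the 10 genes, each above 1 TPM in every library, were among them and were tested. PRRX1 and CDH1 did not reach that level and are given by their values alone. TPM is a relative abundance of transcripts, scaled for their length and for the total of the library.

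SNAIL and ZEB proteins are zinc finger repressors that bind E-box motifs in DNA and are best known for silencing E-cadherin during epithelial-mesenchymal transition, the change in which epithelial cells lose their junctions and gain mesenchymal traits. TWIST proteins are basic helix-loop-helix factors that act as dimers, often with the E-proteins made from TCF3, TCF4 and TCF12, whereas ID proteins bind E-proteins and withhold them from DNA. Vimentin is the main intermediate filament of mesenchymal cells, and N-cadherin and E-cadherin are the adhesion proteins typical of mesenchymal and of epithelial cells. Fibrosarcoma is a mesenchymal tumour, so a mesenchymal pattern is its usual state.

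Gene expression was measured by RNA-seq in 4 groups of 3 libraries. These were siQ61K with poly(dA:dT), siNC with poly(dA:dT), siQ61K with DMSO and siNC with DMSO. siQ61K is an siRNA against the mutant form of NRAS, siNC is a control siRNA, and poly(dA:dT) is a synthetic double-stranded DNA that triggers sensing of DNA in the cytosol. All cells were of the same line, each library came from cells given 1 of these siRNAs, and the sample titles name no agent that delivered the poly(dA:dT) and no delivery control. The study asked how knockdown of mutant NRAS changes the interferon response. Because siQ61K was the only siRNA against NRAS, loss of NRAS cannot be told apart from its off-target effects. Whether replicate libraries stem from separate cultures is not said in the labels, and the spread behind each p-value may therefore be technical.

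Replicate libraries correlated across genes at 0.966 to 0.984, and their depth is unknown because TPM keeps none. The targeted gene NRAS stood at 20.1, 20.3 and 23.5 TPM in siQ61K libraries with poly(dA:dT), against 43.0, 45.9 and 51.7 TPM in siNC libraries with poly(dA:dT). With DMSO it stood at 15.5, 15.2 and 19.9 TPM in siQ61K libraries, against 59.6, 60.6 and 41.4 TPM in siNC libraries. Every siQ61K library was below every siNC library under both agents. TPM does not separate the mutant from the normal allele. In such bulk samples, fewer cells of a type and less RNA per cell cannot be told apart.

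VIM was by far the most abundant of the 10 genes and CDH1 was at or near 0, so these markers did not go against the label of a fibrosarcoma line. In siQ61K libraries with DMSO the mean level was 6501 ± 1153 TPM for VIM (SD, n = 3), 64.5 ± 8.56 TPM for CDH2 and 36.5 TPM for TWIST2, with no overlap between neighbours in that order. SNAI1 (25.2 TPM), SNAI2 (24.8 TPM), TWIST1 (19.7 TPM) and ZEB1 (12.9 TPM) followed, each overlapping the next, and ZEB2 stood below them at 7.63 TPM. In siNC libraries with DMSO VIM averaged 5887 ± 402 TPM and CDH2 46.5 ± 5.78 TPM, and the libraries of CDH2 overlapped those of TWIST2 at 42.8 TPM. There ZEB1 came next at 24.7 TPM, overlapping SNAI2 at 20.8 TPM, with TWIST1 below both at 14.7 TPM, and SNAI1 at 10.1 TPM overlapped ZEB2 at 8.80 TPM. SNAI1 thus ranked 4 and ZEB1 ranked 7 among the 10 genes in siQ61K libraries, against rank 7 for SNAI1 and rank 4 for ZEB1 in siNC libraries with DMSO. In siQ61K libraries with poly(dA:dT) TWIST2 averaged 25.3 TPM and its libraries overlapped those of SNAI2 at 25.7 TPM, whereas in siNC libraries with poly(dA:dT) TWIST2 at 48.7 TPM stood above CDH2 at 38.2 TPM with no overlap. These levels are on the TPM scale, which is corrected for length.

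CDH1, the gene of E-cadherin, was listed at 0 in 11 of 12 libraries and at 0.0191 TPM in siQ61K DMSO replicate 3. PRRX1, a homeobox factor of limb and craniofacial mesenchyme, was listed at 0 in all 3 siQ61K libraries with poly(dA:dT) and at 0, 0 and 0.0156 TPM in the siNC libraries with poly(dA:dT). With DMSO it was listed at 0, 0.0397 and 0.0184 TPM in siQ61K libraries, against 0.0601, 0.0685 and 0.0170 TPM in siNC libraries. PRRX1 stayed under 0.1 TPM everywhere, and no difference between groups can be read at that level.

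Other epithelial genes were mostly low as well. Of 26 epithelial structural genes, 12 were under 1 TPM in all 12 libraries, among them the adhesion molecule gene EPCAM and the keratin genes KRT5, KRT14 and KRT19. Of 12 epithelial regulators of transcription and splicing, 9 were under 1 TPM throughout, including GRHL2, OVOL1, OVOL2 and ESRP1, which sustain the epithelial state. The line was not free of epithelial keratin transcripts, since KRT8 averaged 542 ± 40.5 TPM in siQ61K libraries and 393 ± 48.9 TPM in siNC libraries with DMSO. Markers of other cell types were at or near 0 in most cases. Of 15 such markers, 11 were under 1 TPM in every library, among them PTPRC of leukocytes, KDR of endothelium, MYOD1 of muscle and SOX10 of neural crest. The mesenchymal markers THY1, PDGFRA, NT5E, DCN and POSTN were also under 1 TPM in every library.

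Differences between groups were tested on log2(TPM + 1) values with limma, and a gene passed at an adjusted p under 0.05 (Benjamini-Hochberg over all 14722 genes). With DMSO, 2 of the 8 tested members rose and 1 fell in siQ61K over siNC libraries, where 31.5% of all genes passed (16.6% higher and 14.8% lower). In the knockdown with poly(dA:dT), 3 members rose and 3 fell, where 21.4% of all genes passed (8.71% higher and 12.6% lower). Poly(dA:dT) over DMSO changed 0 of the 8 members under siNC, where 0.122% of all genes passed in limma and 1640 genes, none of them a member (0 of 8), had an unadjusted p under 0.05. Under siQ61K, poly(dA:dT) lowered 2 of the 8 members and raised 0, where 25.2% of all genes passed and 18.3% were lower. The share of members that passed was thus close to that of all genes in the DMSO knockdown and in the poly(dA:dT) response under siQ61K, and above it in the knockdown with poly(dA:dT). The members were chosen with earlier results of these data known, so no conclusion is drawn from these shares.

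The interaction, the response to poly(dA:dT) under siQ61K minus that under siNC, was lower in 2 of the 8 members, where 18.1% of all genes passed and 12.1% were lower. The median log2 fold change of the 8 members was 0.19 for the knockdown with DMSO and -0.26 for the knockdown with poly(dA:dT), against 0.01 and -0.07 over all genes. For poly(dA:dT) it was -0.27 under siQ61K and -0.13 under siNC, against -0.15 and -0.07 over all genes. Members moved in both directions under the knockdown, so these medians describe no common shift. In the knockdown with poly(dA:dT) the libraries of the 2 groups did not overlap for all 8 members, where 36.7% of all genes had no overlap. In the knockdown with DMSO they did not overlap for 5 members, where 45.8% of all genes had none, and for poly(dA:dT) under siQ61K for 3 members, where 39.3% had none. An exact two-sided permutation test of 3 libraries against 3 gave p = 0.1, its smallest possible value, for every member whose groups did not overlap.

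**Figure D1:**
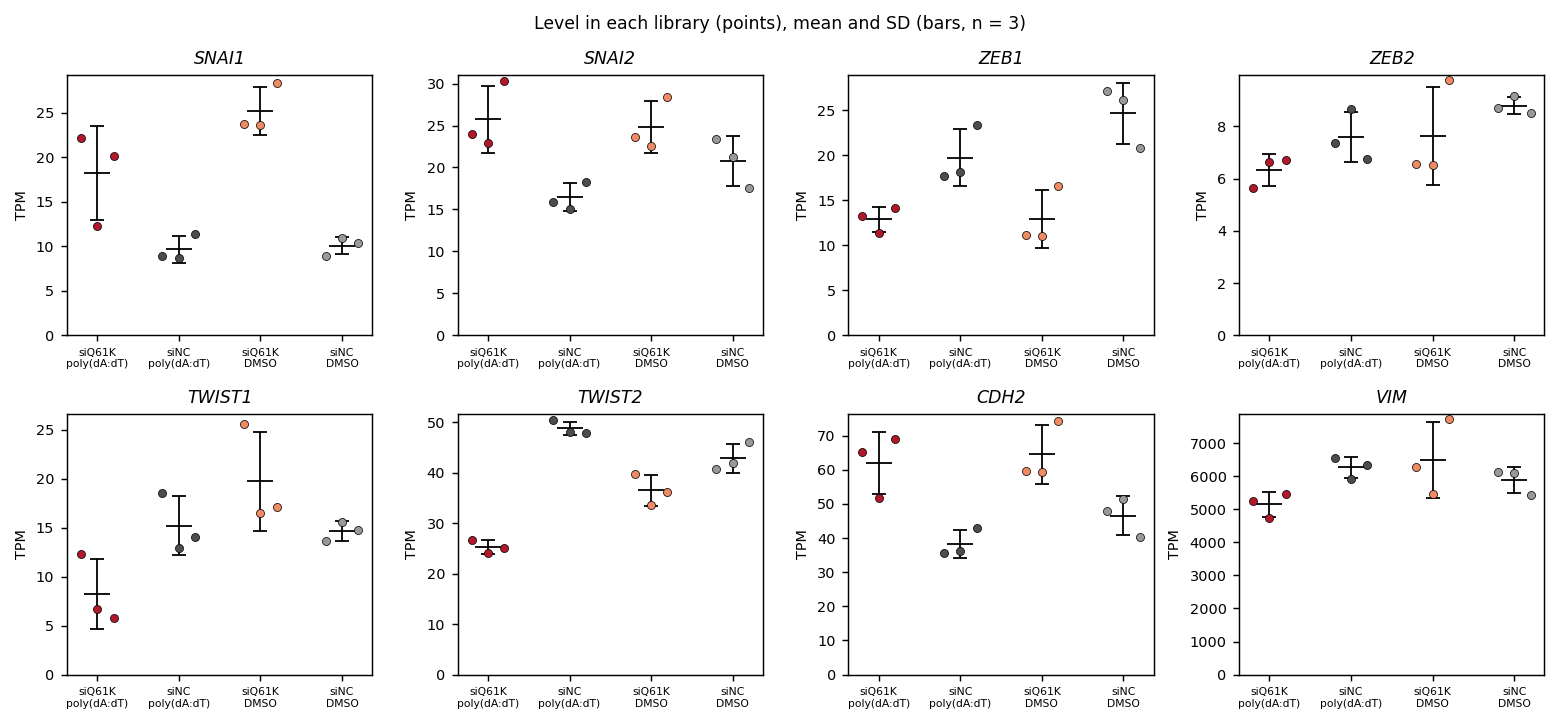
Level in TPM (vertical axes, linear from 0) of the 8 tested genes in each library, with points for libraries and bars for the mean and SD (n = 3). SNAI1 is higher and ZEB1 lower in siQ61K than in siNC libraries under both agents, while TWIST1 and TWIST2 are lowest in siQ61K libraries with poly(dA:dT).

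**Figure D2:**
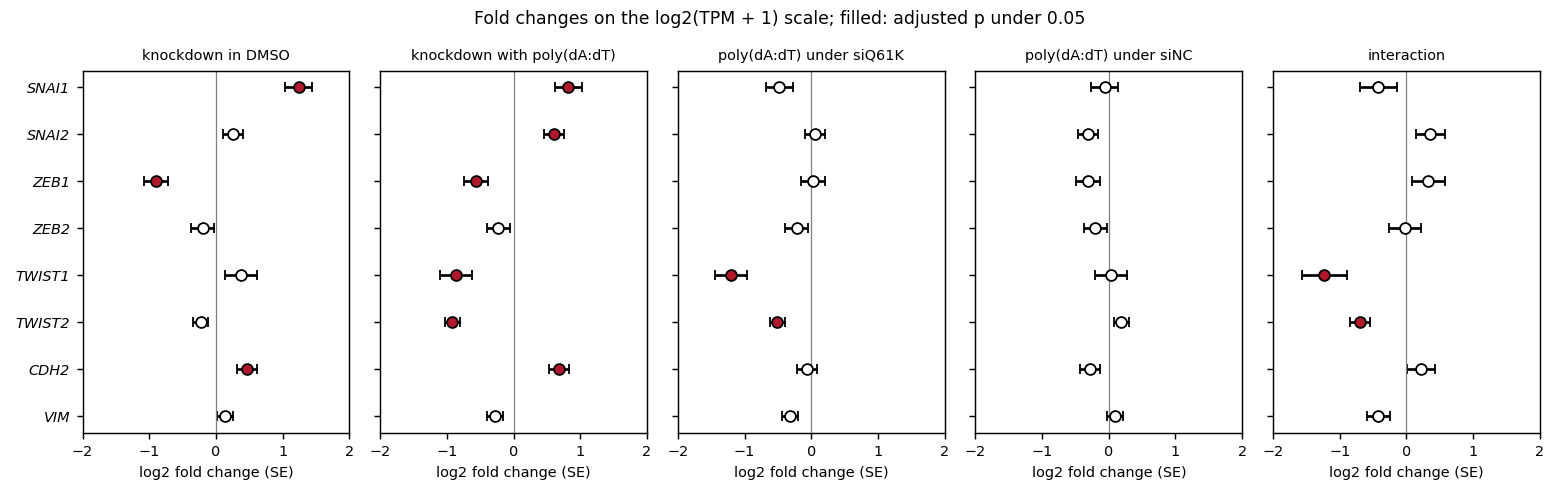
Log2 fold change on the log2(TPM + 1) scale (horizontal axes) with its SE for the 8 tested genes in the 5 comparisons; filled points have an adjusted p under 0.05. Filled points lie on both sides of 0 in the 2 knockdown comparisons, and only TWIST1 and TWIST2 are filled for poly(dA:dT) under siQ61K and for the interaction.

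SNAI1, the gene of the repressor SNAIL, rose in siQ61K libraries under both agents. With DMSO it stood at 23.7, 23.6 and 28.3 TPM in siQ61K libraries, against 8.96, 10.9 and 10.4 TPM in siNC libraries. In the presence of poly(dA:dT) it stood at 22.2, 12.3 and 20.2 TPM in siQ61K libraries, against 8.93, 8.67 and 11.4 TPM in siNC libraries. Every siQ61K library was above every siNC library, and siQ61K poly(dA:dT) replicate 2 was the lowest of the siQ61K libraries. On the log2 scale it rose by 1.24 (SE 0.20, adjusted p = 5.85e-04) with DMSO and by 0.82 (SE 0.20, adjusted p = 0.0101) with poly(dA:dT). Fold changes on this scale understate the change of low genes. Poly(dA:dT) gave a log2 fold change of -0.48 under siQ61K (adjusted p = 0.0899) and -0.06 under siNC (adjusted p = 0.907). Without siQ61K poly(dA:dT) replicate 1 the value under siQ61K was -0.64 and passed (adjusted p = 0.0319), and after correction for the GC content and length of transcripts it was -0.17 (adjusted p = 0.602).

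SNAI2, the gene of the related repressor SLUG, rose in siQ61K over siNC libraries with poly(dA:dT) but did not pass the test with DMSO. With poly(dA:dT) it stood at 24.0, 22.9 and 30.3 TPM in siQ61K libraries, against 15.9, 15.1 and 18.3 TPM in siNC libraries. The groups did not overlap, and SNAI2 rose by 0.61 on the log2 scale (SE 0.15, adjusted p = 0.0129). That call was lost when siQ61K poly(dA:dT) replicate 3 was left out (0.49, adjusted p = 0.0597), and likewise for siNC poly(dA:dT) replicate 2 (0.55, adjusted p = 0.0540). With DMSO the values were 23.6, 22.5 and 28.4 TPM in siQ61K libraries and 23.4, 21.3 and 17.6 TPM in siNC libraries, which overlapped. The log2 fold change there was 0.25 (95% interval -0.08 to 0.58, adjusted p = 0.237). The interaction for SNAI2 was 0.36 (adjusted p = 0.263), so the 2 knockdown values were not shown to differ. SNAI1 made up a larger part of the SNAIL pair in siQ61K libraries with DMSO, at a SNAI1 to SNAI2 TPM ratio of 1.02 ± 0.0294 (SD, n = 3), against 0.496 ± 0.105 in siNC libraries with DMSO. With poly(dA:dT) the ratio was 0.924, 0.537 and 0.668 in siQ61K libraries and 0.560, 0.573 and 0.620 in siNC libraries, which overlapped. After the GC and length correction the log2 fold changes of the pair with DMSO were 0.95 for SNAI1 (adjusted p = 0.00312) and 0.49 for SNAI2 (adjusted p = 0.00234).

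ZEB1, a zinc finger and homeobox repressor of epithelial genes, moved the other way from SNAI1. With DMSO it stood at 11.1, 11.0 and 16.6 TPM in siQ61K libraries, against 27.1, 26.1 and 20.8 TPM in siNC libraries. Its poly(dA:dT) values were 13.2, 11.4 and 14.1 TPM in siQ61K libraries, against 17.7, 18.1 and 23.4 TPM in siNC libraries. The groups did not overlap under either agent. ZEB1 fell by 0.90 on the log2 scale with DMSO (SE 0.18, adjusted p = 0.00255) and by 0.57 with poly(dA:dT) (SE 0.18, adjusted p = 0.0393). The second call was lost when any 1 of the 6 poly(dA:dT) libraries or siNC DMSO replicate 2 was left out, with log2 fold changes between -0.64 and -0.44 and adjusted p between 0.0522 and 0.142. With every library corrected for the GC content and length of transcripts it was -0.57, with an adjusted p of 7.29e-04.

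ZEB2, the paralog of ZEB1, did not pass in any comparison. With DMSO it stood at 6.57, 6.53 and 9.78 TPM in siQ61K libraries, against 8.72, 9.16 and 8.52 TPM in siNC libraries, which overlapped. The 95% interval of its log2 fold change was -0.57 to 0.17 with DMSO and -0.60 to 0.14 with poly(dA:dT), and both intervals include 0. The SNAI1 to ZEB1 TPM ratio gathers the opposite shifts into 1 value per library. It was 2.14, 2.16 and 1.70 in siQ61K libraries with DMSO, against 0.331, 0.420 and 0.499 in siNC libraries with DMSO. The poly(dA:dT) libraries gave 1.68, 1.08 and 1.44 in siQ61K libraries, against 0.504, 0.480 and 0.487 in siNC libraries. SNAI1 thus exceeded ZEB1 in all 6 siQ61K libraries and was below it in all 6 siNC libraries, a count that repeats the 2 fold changes above. The antisense gene ZEB1-AS1 stood at 11.8, 6.39 and 12.6 TPM in siQ61K libraries and at 15.0, 12.7 and 11.8 TPM in siNC libraries with DMSO. The use of strand in counting is not given in the sources used here, so reads of ZEB1 and ZEB1-AS1 may not be told apart where they overlap.

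The 250 bases before annotated starts of members that moved in the knockdown are shown for the E-box to which SNAIL and ZEB proteins bind. Sequences are from RefSeq on GRCh38.p14, each read 5′ to 3′ on the strand of its gene, with CAGGTG and its reverse complement CACCTG in capitals (both strands searched). ZEB1 has 7 such windows, of which 2 hold the motif. The first shown is chr10:31318167-31318416 with 1 match and the second is chr10:31318966-31319215 with 2 matches, both on the plus strand. A window before a later start can lie inside transcripts from an earlier one. TWIST2 (chr2:238847835-238848084, plus strand) and CDH2 (chr18:28177131-28177380, minus strand) have no match.
ZEB1 first window: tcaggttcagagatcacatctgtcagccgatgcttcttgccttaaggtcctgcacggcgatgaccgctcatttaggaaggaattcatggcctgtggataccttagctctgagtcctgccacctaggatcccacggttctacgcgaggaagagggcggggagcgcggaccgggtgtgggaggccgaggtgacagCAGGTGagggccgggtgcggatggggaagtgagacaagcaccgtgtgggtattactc
ZEB1 second window: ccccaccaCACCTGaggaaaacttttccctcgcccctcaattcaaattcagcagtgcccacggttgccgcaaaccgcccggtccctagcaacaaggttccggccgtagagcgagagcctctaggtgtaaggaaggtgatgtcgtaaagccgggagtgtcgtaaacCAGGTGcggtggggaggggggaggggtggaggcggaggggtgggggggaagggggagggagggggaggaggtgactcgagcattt
TWIST2: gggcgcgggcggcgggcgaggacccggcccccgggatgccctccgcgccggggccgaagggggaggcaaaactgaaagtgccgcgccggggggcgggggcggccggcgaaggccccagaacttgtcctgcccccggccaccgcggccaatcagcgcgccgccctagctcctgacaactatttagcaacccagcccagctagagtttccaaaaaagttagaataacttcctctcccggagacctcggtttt
CDH2: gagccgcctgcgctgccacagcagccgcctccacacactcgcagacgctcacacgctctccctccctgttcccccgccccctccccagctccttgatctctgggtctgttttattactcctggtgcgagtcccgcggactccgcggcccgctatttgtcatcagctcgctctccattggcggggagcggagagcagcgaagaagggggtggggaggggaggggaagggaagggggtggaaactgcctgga

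Of all 35116 such windows in the RefSeq table, 17.5% hold at least 1 match and 2.53% hold 2 or more. The single windows of VIM, ZEB2 and PRRX1 and the other window of CDH2 also hold none. Windows of SNAI1, SNAI2, TWIST1 and CDH1 were not used here. A match describes these letters and not a bound site, and a window with none says nothing about a factor.

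TWIST1 and TWIST2, paralogous factors of mesoderm and connective tissue, were the 2 members whose response to poly(dA:dT) differed between the siRNAs by the interaction test on the deposited values. TWIST1 stood at 12.3, 6.69 and 5.75 TPM in siQ61K libraries with poly(dA:dT), against 25.6, 16.5 and 17.1 TPM in siQ61K libraries with DMSO. Under siNC it stood at 18.6, 12.9 and 14.1 TPM with poly(dA:dT), against 13.6, 15.6 and 14.8 TPM with DMSO. The groups did not overlap under siQ61K and did overlap under siNC. TWIST1 fell by 1.20 on the log2 scale with poly(dA:dT) under siQ61K (SE 0.24, adjusted p = 0.00621), and its log2 fold change was 0.03 under siNC (adjusted p = 0.965). The interaction was -1.23 (SE 0.34, adjusted p = 0.0288).

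TWIST2 stood at 26.7, 24.0 and 25.1 TPM in siQ61K libraries with poly(dA:dT), against 39.7, 33.6 and 36.1 TPM in siQ61K libraries with DMSO. Under siNC it stood at 50.3, 48.0 and 47.9 TPM with poly(dA:dT), against 40.6, 41.8 and 46.0 TPM with DMSO. The libraries did not overlap in either pair, and they differed in opposite directions. TWIST2 fell by 0.51 with poly(dA:dT) under siQ61K (SE 0.11, adjusted p = 0.00657), while the value under siNC was 0.19 and did not pass (adjusted p = 0.502). The interaction was -0.70 (SE 0.15, adjusted p = 0.0126). TWIST2 was the only member whose 3 siNC libraries with poly(dA:dT) did not overlap the 3 with DMSO, where 17.9% of all genes had no overlap.

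Between the siRNAs, both genes were lower in siQ61K than in siNC libraries with poly(dA:dT). TWIST2 fell by 0.92 (SE 0.11, adjusted p = 6.17e-05) and TWIST1 by 0.86 (SE 0.24, adjusted p = 0.0239). With DMSO the log2 fold changes of siQ61K over siNC were 0.38 for TWIST1 (adjusted p = 0.262) and -0.23 for TWIST2 (adjusted p = 0.122), and neither passed. The TWIST2 to TWIST1 TPM ratio was 1.90 ± 0.303 in siQ61K libraries with DMSO, against 2.92 ± 0.230 in siNC libraries with DMSO (SD, n = 3). Its value with poly(dA:dT) was 3.37 ± 1.12 in siQ61K libraries and 3.28 ± 0.517 in siNC libraries. The paralogs share 0 stretches of 31 bases between their annotated transcripts, and the same holds for SNAI1 and SNAI2, for ZEB1 and ZEB2 and for CDH1 and CDH2.

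The 2 TWIST1 calls that involve siNC depended on single libraries. Its fall in siQ61K over siNC libraries with poly(dA:dT) did not pass when 1 of 3 libraries was left out, siQ61K poly(dA:dT) replicate 2 (-0.76, adjusted p = 0.0865), replicate 3 (-0.66, adjusted p = 0.0998) or siNC poly(dA:dT) replicate 1 (-0.71, adjusted p = 0.0925). Its interaction did not pass with siQ61K poly(dA:dT) replicate 2 left out (-1.13, adjusted p = 0.0684) or replicate 3 (-1.04, adjusted p = 0.0736), without siQ61K DMSO replicate 1 (-1.04, adjusted p = 0.0710), or without siNC poly(dA:dT) replicate 1 (-1.09, adjusted p = 0.0723). It also missed the threshold without siNC DMSO replicate 1 (-1.18, adjusted p = 0.0709) or replicate 2 (-1.28, adjusted p = 0.0503). The TWIST2 calls passed whichever single library was left out.

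GC content moved with the fold changes in all 5 comparisons, also in those where neither TWIST gene passed. Across the 14299 tested genes with a known transcript, Spearman's rho between GC content and log2 fold change was 0.505 in the knockdown with DMSO, -0.245 in the knockdown with poly(dA:dT), 0.503 for poly(dA:dT) under siNC, -0.572 for poly(dA:dT) under siQ61K and -0.656 for the interaction, values across genes that are not independent replicates. TWIST1 (57.2% GC), TWIST2 (57.0%) and SNAI1 (58.2%) lie above the upper quartile of tested genes (56.1%), whereas ZEB1 (38.5%) and ZEB2 (39.1%) lie below the lower quartile (42.0%). After correction for GC content and length the interaction was -0.82 for TWIST1 (adjusted p = 0.140) and -0.31 for TWIST2 (adjusted p = 0.139), and 0 of the 8 members passed in limma (3 had an unadjusted p under 0.05), where 2.08% of all genes passed. The corrected log2 fold change of TWIST1 with poly(dA:dT) under siQ61K was -0.92 and still passed (adjusted p = 0.0212), and that of TWIST2 was -0.26 and did not (adjusted p = 0.0550). The lower TWIST levels in siQ61K over siNC libraries with poly(dA:dT) passed after correction, at -0.77 for TWIST2 and -0.70 for TWIST1 (adjusted p = 0.0230).

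In the knockdown with DMSO the correction left SNAI1 at 0.95 (adjusted p = 0.00312), ZEB1 at -0.62 (adjusted p = 4.92e-04) and CDH2 at 0.55 (adjusted p = 8.58e-04). SNAI2 at 0.49 (adjusted p = 0.00234) and TWIST2 at -0.46 (adjusted p = 9.90e-04) passed only after correction. Hence 5 members passed in that comparison, 3 higher and 2 lower, where 27.6% of all genes did. Whether the trend with GC content comes from the libraries or from the cells was not tested.

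**Figure D3:**
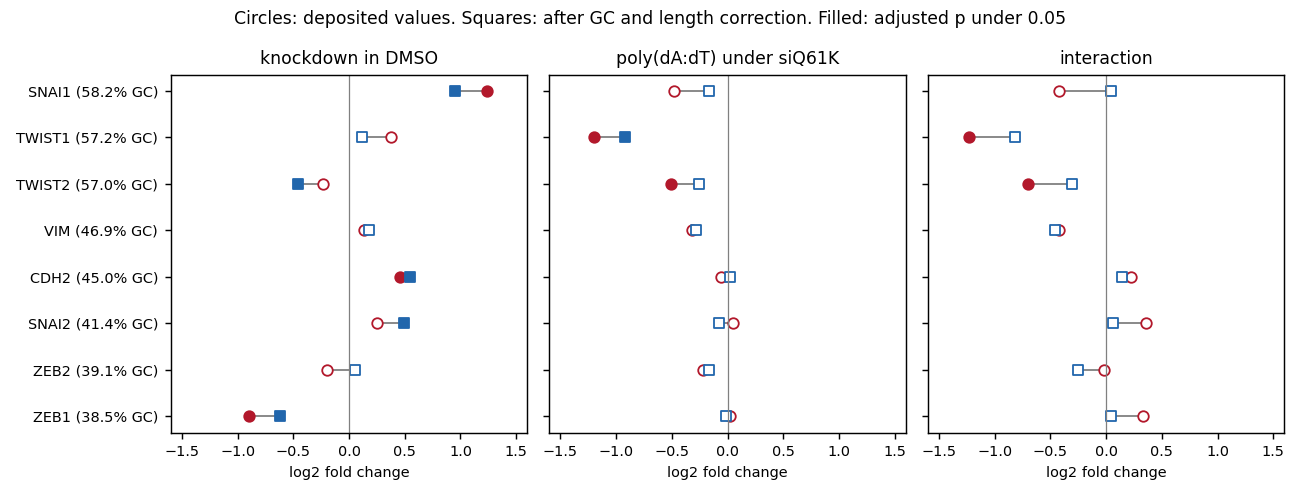
Log2 fold change (horizontal axes) of the 8 tested genes in 3 comparisons, ordered by the GC content of the longest transcript, with circles for deposited values and squares after correction for GC content and length; filled symbols have an adjusted p under 0.05. Corrected values of TWIST1 and TWIST2 lie nearer 0 for poly(dA:dT) under siQ61K and for the interaction, and SNAI1, ZEB1 and CDH2 remain filled in the knockdown with DMSO.

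The dimer partners and inhibitors of TWIST proteins fell more often than they rose in siQ61K libraries. Of the 7 tested, 4 fell (ID1, ID2, ID3 and TCF12) and 1 rose (TCF3) in the knockdown with DMSO, where 14.8% of all genes fell and 16.6% rose. The median log2 fold change was -0.75 against 0.01 over all genes. In the knockdown with poly(dA:dT) 4 fell (ID1, ID3, TCF3 and TCF12) and 0 rose, where 12.6% of all genes fell and 8.71% rose. The median was -0.64 against -0.07 over all genes. The list joins partners and inhibitors, so its counts give no direction for TWIST activity. ID1, an inhibitor that binds E-proteins, stood at 151, 144 and 129 TPM in siQ61K libraries with DMSO, against 469, 496 and 419 TPM in siNC libraries with DMSO. With poly(dA:dT) ID1 stood at 122, 123 and 116 TPM in siQ61K libraries, against 584, 506 and 430.4 TPM in siNC libraries. It fell by 1.70 with DMSO (adjusted p = 1.39e-06) and by 2.05 with poly(dA:dT) (adjusted p = 1.31e-07), more than any of the 8 tested members in either comparison. ID3, a related inhibitor, fell by 0.75 (adjusted p = 0.00314) and by 0.64 (adjusted p = 0.0101), and the second call was lost after the GC and length correction with a value of -0.49 (adjusted p = 0.0610).

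Among the E-proteins, TCF12 fell under both agents and TCF3 did not keep 1 direction. TCF12 stood at 16.1, 14.1 and 22.0 TPM in siQ61K libraries with DMSO, against 32.9, 39.7 and 29.6 TPM in siNC libraries with DMSO. It fell by 0.95 with DMSO (adjusted p = 0.00149) and by 0.84 with poly(dA:dT) (adjusted p = 0.00415). TCF3 stood at 68.9, 63.8 and 57.6 TPM in siQ61K libraries with poly(dA:dT), against 135, 119.8 and 160.4 TPM in siQ61K libraries with DMSO. Under siNC it stood at 136, 102 and 126 TPM with poly(dA:dT), against 94.2, 109 and 90.8 TPM with DMSO. Its interaction was -1.40 (SE 0.19, adjusted p = 0.00300), of the same sign as those of TWIST1 and TWIST2, and once corrected was -0.66 (adjusted p = 0.0629). In siQ61K over siNC libraries TCF3 fell by 0.92 with poly(dA:dT) (adjusted p = 5.26e-04). With DMSO its log2 fold change was 0.49 (adjusted p = 0.0169), which came to 0.04 after the correction (adjusted p = 0.844). That call was also lost without siQ61K DMSO replicate 3 (0.37, adjusted p = 0.0644), siNC DMSO replicate 1 (0.46, adjusted p = 0.0591) or siNC DMSO replicate 3 (0.43, adjusted p = 0.0507).

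**Figure D4:**
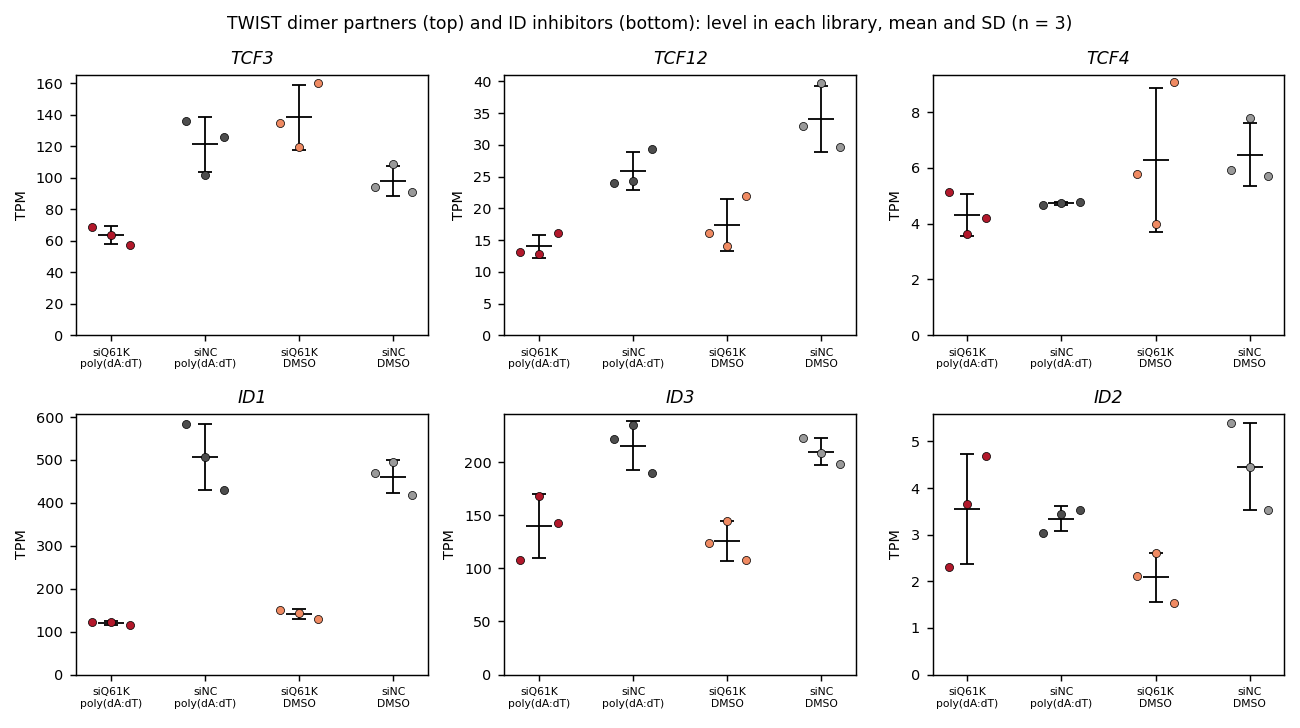
Level in TPM (vertical axes, linear from 0) of the E-protein genes TCF3, TCF12 and TCF4 and the inhibitor genes ID1, ID3 and ID2 in each library, with points for libraries and bars for the mean and SD (n = 3). ID1 lies between 116 and 151 TPM in all siQ61K libraries and at 419 TPM or more in all siNC libraries, and TCF3 is lowest in siQ61K libraries with poly(dA:dT).

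CDH2, the gene of N-cadherin, rose in siQ61K libraries. With DMSO it stood at 59.7, 59.4 and 74.4 TPM in siQ61K libraries, against 48.0, 51.4 and 40.2 TPM in siNC libraries. Its values with poly(dA:dT) were 65.3, 51.7 and 68.9 TPM in siQ61K libraries, against 35.5, 36.3 and 42.9 TPM in siNC libraries. No library of one siRNA overlapped the other within an agent. CDH2 rose by 0.46 on the log2 scale with DMSO (SE 0.15, adjusted p = 0.0283) and by 0.68 with poly(dA:dT) (SE 0.15, adjusted p = 0.00539). The call with DMSO was lost without siQ61K DMSO replicate 3 (0.36, adjusted p = 0.0978), siNC DMSO replicate 1 (0.49, adjusted p = 0.0583) or siNC DMSO replicate 3 (0.36, adjusted p = 0.0948). Poly(dA:dT) gave -0.06 under siQ61K (adjusted p = 0.796) and -0.28 under siNC (adjusted p = 0.478).

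VIM, the gene of vimentin, did not pass in any comparison in the fit to all 14722 genes and 12 libraries, and several of its calls turned on the setting. With DMSO it stood at 6297, 5464 and 7742 TPM in siQ61K libraries, against 6129, 6111 and 5423 TPM in siNC libraries. Its libraries with poly(dA:dT) held 5251, 4728 and 5480.2 TPM in siQ61K libraries, against 6560.4, 5913 and 6340.4 TPM in siNC libraries. The groups overlapped with DMSO and did not overlap with poly(dA:dT). The 95% interval of the log2 fold change was -0.13 to 0.39 with DMSO and -0.54 to -0.03 with poly(dA:dT), and the adjusted p in the second was 0.108. The second value passed under quantile normalization (-0.45, adjusted p = 0.0277) and without siQ61K DMSO replicate 3 (-0.28, adjusted p = 0.0480). For poly(dA:dT) under siQ61K the log2 fold change was -0.32 (adjusted p = 0.0640), and it passed under quantile normalization (-0.50, adjusted p = 0.0174), among genes with a mean of at least 5 TPM (-0.32, adjusted p = 0.0451) and without siQ61K DMSO replicate 2 (-0.44, adjusted p = 0.0227). The interaction was -0.42 (adjusted p = 0.104) and passed under quantile normalization (-0.64, adjusted p = 0.0318) and without siQ61K DMSO replicate 2 (-0.53, adjusted p = 0.0429). The antisense gene VIM-AS1 averaged 12.6 TPM in siQ61K libraries and 20.6 TPM in siNC libraries with poly(dA:dT), with a log2 fold change of -0.66 that did not pass (adjusted p = 0.0612), and the limit on strand given for ZEB1-AS1 holds here too.

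Other cadherins and catenins moved in both directions, while 4 of 6 other filament and linker genes fell with poly(dA:dT). Among 7 other cadherins and catenins tested, 1 rose and 2 fell in each knockdown comparison, and the 2 that fell differed in 1 gene. Of all genes, 16.6% rose and 14.8% fell with DMSO, and 8.71% rose and 12.6% fell with poly(dA:dT). With each library left out in turn, 1 to 2 fell with DMSO and 0 to 1 rose with poly(dA:dT). CDH11, a cadherin of mesenchymal cells, rose by 0.76 with DMSO (adjusted p = 0.00789) and by 0.64 with poly(dA:dT) (adjusted p = 0.0265). The second of these calls was lost with siQ61K poly(dA:dT) replicate 1 left out (0.52, adjusted p = 0.0737) or replicate 3 (0.61, adjusted p = 0.0763) and without siNC poly(dA:dT) replicate 1 (0.60, adjusted p = 0.0800) or replicate 2 (0.63, adjusted p = 0.0723). CTNNA1, which encodes the alpha-catenin that couples cadherins to actin, fell by 0.49 with DMSO (adjusted p = 0.00276) and by 0.46 with poly(dA:dT) (adjusted p = 0.00589). The other fall with DMSO was that of CTNNB1, the gene of beta-catenin, at -0.30 and next to the threshold (adjusted p = 0.0498), and it was lost when corrected for GC content and length (-0.16, adjusted p = 0.132). Leaving out a single library also ended the CTNNB1 call, except for siQ61K poly(dA:dT) replicate 1, siQ61K DMSO replicate 3 and siNC DMSO replicate 3. The other fall with poly(dA:dT) was that of the cadherin gene CDH4 (-0.85, adjusted p = 0.0101), which averaged 1.01 TPM in siQ61K libraries and 2.60 TPM in siNC libraries. Of 6 other intermediate filament and linker genes tested, 1 rose (0 to 2 with a library left out) and 1 fell with DMSO. The 1 that rose was the cross-linker gene PLEC, next to the threshold (0.62, adjusted p = 0.0499). After the GC and length correction PLEC was -0.05 (adjusted p = 0.824), and 0 rose and 2 fell in that comparison. With poly(dA:dT) 4 fell and 0 rose (4 and 1 after the correction), where 12.6% of all genes fell and 8.71% rose on the deposited values. The 4 that fell on the deposited values were the nuclear lamin genes LMNA (-1.02, adjusted p = 8.00e-04), LMNB2 (-0.90, adjusted p = 0.00631) and LMNB1 (-0.72, adjusted p = 0.00479) and PLEC (-0.91, adjusted p = 0.0122). PLEC did not pass there with siQ61K poly(dA:dT) replicate 2 left out (-0.79, adjusted p = 0.0540) or replicate 3 (-0.80, adjusted p = 0.0526).

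Other mesenchymal and fibroblast markers rose more often than they fell in siQ61K libraries with DMSO. Of 13 tested, 8 rose and 3 fell with DMSO (median 0.63, against 0.01 over all genes), where 16.6% of all genes rose and 14.8% fell. With poly(dA:dT) 6 rose and 2 fell (median -0.01, against -0.07), where 8.71% of all genes rose and 12.6% fell. After the GC and length correction 6 rose and 2 fell in each comparison. CDH11, named above among the cadherins, belongs to this list too and is counted among the markers that rose in each. When each library was left out in turn, 7 to 8 rose with DMSO and 3 to 6 with poly(dA:dT). SPARC, a matrix protein gene, stood at 2735, 2709 and 3308 TPM in siQ61K libraries with DMSO, against 995, 1238 and 1184 TPM in siNC libraries with DMSO. It rose by 1.36 with DMSO (adjusted p = 3.10e-05) and by 0.72 with poly(dA:dT) (adjusted p = 0.00289). CALD1, an actin-binding protein gene, rose by 1.01 (adjusted p = 2.31e-04) and by 1.38 (adjusted p = 1.97e-05). CD44, the hyaluronan receptor gene, fell by 0.81 (adjusted p = 0.00693) and by 1.61 (adjusted p = 8.32e-05). The fibronectin gene FN1 averaged 299 TPM in siQ61K libraries with DMSO, below 444 TPM in siNC libraries with DMSO. S100A4 (15.0 against 24.6 TPM) and LOX (32.1 against 44.1 TPM) were likewise lower by their means there. TAGLN, a smooth muscle actin-binding protein gene, rose by 1.62 with DMSO (adjusted p = 6.94e-05).

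Under siQ61K, 7 of the same 13 markers were lower with poly(dA:dT) than with DMSO and 0 were higher, where 18.3% of all genes were lower. Their median was -0.51 against -0.15 over all genes. The count of 7 ranged from 2 to 9 when each library was left out and was 3 after the GC and length correction. SPARC fell by 0.67 there (adjusted p = 0.00661). The summed level of the list was 2420.4 to 3343 TPM in siQ61K libraries with poly(dA:dT), against 3882 to 4847 TPM in siQ61K libraries with DMSO. Under siNC, 0 of the 13 passed for poly(dA:dT) in limma, where 0.122% of all genes passed, and 2 had an unadjusted p under 0.05.

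Other transcription factors tied to epithelial-mesenchymal transition were split. Of 10 tested, 3 rose and 2 fell with DMSO, where 16.6% of all genes rose and 14.8% fell. With poly(dA:dT) 2 rose and 2 fell, where 8.71% of all genes rose and 12.6% fell. Corrected for GC content and length, 3 rose and 3 fell in each comparison. With each library left out in turn, 2 to 3 rose and 2 to 4 fell with DMSO, and 1 to 3 moved each way with poly(dA:dT). SOX4, a factor that supports the transition, averaged 21.2 ± 3.26 TPM in siQ61K libraries and 9.64 ± 0.485 TPM in siNC libraries with DMSO (SD, n = 3), a rise of 1.05 on the log2 scale (adjusted p = 2.20e-04). It rose by 0.73 with poly(dA:dT) (adjusted p = 0.00300). WWTR1, the gene of the coactivator TAZ, fell by 0.90 with DMSO (adjusted p = 5.73e-04) and by 0.91 with poly(dA:dT) (adjusted p = 7.40e-04). Of 15 corepressor genes used by SNAIL and ZEB proteins, 3 rose and 4 fell with DMSO (1 to 5 fell with a library left out). With poly(dA:dT) 1 rose and 1 fell (1 to 2 and 0 to 2). The shares of all genes given above for each comparison stand beside these counts too. After the GC and length correction 2 rose and 2 fell with DMSO, and 2 rose and 4 fell with poly(dA:dT). AJUBA, a LIM protein gene whose product binds SNAIL, rose in both, by 0.95 (adjusted p = 5.52e-05) and by 0.85 (adjusted p = 1.14e-04).

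The epithelial structural genes showed no broad rise. Of 13 tested, 2 were higher and 0 lower in the knockdown with DMSO, where 16.6% of all genes were higher and 14.8% lower. In the knockdown with poly(dA:dT) 0 of the 13 passed in limma, where 21.4% of all genes passed, and 2 had an unadjusted p under 0.05. The 2 higher with DMSO were KRT8 (0.47, adjusted p = 0.0220) and the plakophilin gene PKP3 (0.52, adjusted p = 0.0374), and after the GC and length correction neither passed, at 0.18 (adjusted p = 0.196) and -0.05 (adjusted p = 0.793). The number that passed with DMSO was 0 to 2 when each library was left out. KRT8 has near-identical processed copies in the genome, so its value is uncertain. Of the markers of other cell types, TUBB3, a tubulin gene typical of neurons, rose by 1.00 in the knockdown with DMSO (adjusted p = 1.22e-04). The list's summed level was 318 to 345 TPM in siQ61K libraries and 154 to 176 TPM in siNC libraries with DMSO, of which TUBB3 alone made up 316 to 337 TPM and 153 to 174 TPM. Of 15 markers in the table, 11 stayed under 1 TPM in every library, among them PTPRC, KDR and MYOD1. The melanocyte genes differed, with MLANA under 1 TPM, PMEL averaging 1.56 TPM in siQ61K libraries and 1.36 TPM in siNC libraries with DMSO, and MITF at 3.64, 1.18 and 5.42 TPM in siQ61K libraries and 0, 2.61 and 0.414 TPM in siNC libraries with DMSO. The MITF groups overlapped and its log2 fold change of 1.22 did not pass (adjusted p = 0.170).

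**Figure D5:**
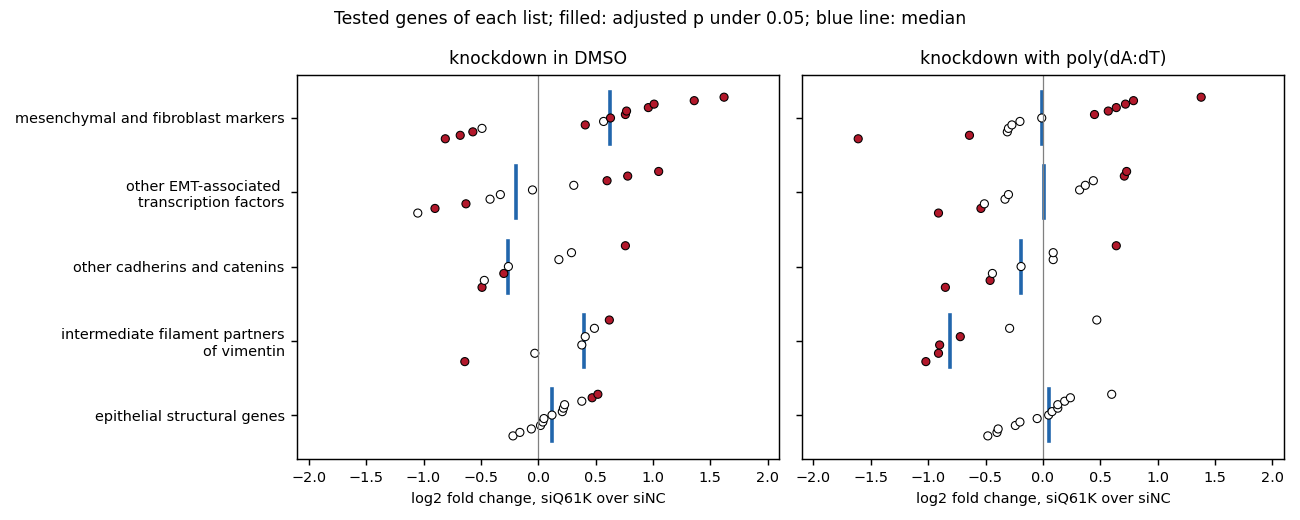
Log2 fold change of siQ61K over siNC (horizontal axes) for each tested gene of 5 lists, with DMSO on the left and poly(dA:dT) on the right; filled points have an adjusted p under 0.05 and blue lines mark list medians. Most mesenchymal and fibroblast markers lie right of 0 with DMSO (8 of 13 filled and higher), while epithelial structural genes lie around 0 on both sides.

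Genes whose pattern was most like that of a member were found among 10086 others with a mean of at least 5 TPM, by the root mean square difference of centred log2(TPM + 1) values over the 12 libraries. SPARC was nearest to SNAI1, with a difference of 0.113 where SNAI1 itself varied by 0.582 about its mean, and CTSA (0.142) and XXYLT1 (0.145) came next. Nearest to ZEB1 (0.426) were SPRED1 (0.0712), SEC24D (0.0716) and CLMP (0.0760). CDH2 (0.337) had EFEMP1 (0.0676), IL13RA1 (0.0821) and TSPYL4 (0.0909) nearest. For SNAI2 (0.283) the nearest genes were TDG (0.0828), ADAM9 (0.0873) and SERPINB5 (0.0902). TWIST2 (0.353) had TMEM129 (0.0915), RNF215 (0.108) and SLC25A11 (0.108), and TWIST1 (0.521) had DCAKD (0.154), LZTS2 (0.178) and SRRM2 (0.185). TWIST1 had the most distant neighbours of these 6 members, and the likeness describes these libraries only.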

How the data were processed

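RNA-seq libraries of HT1080 cells were made from total RNA (NEBNext Ultra kit) and read on an Illumina NovaSeq, per the labels' protocols. The authors deposited 1 table of TPM per gene symbol. Per the submitters' processing notes, the tool was Salmon 0.8.0 and the build hg19. The sources used here give no annotation or strand setting. The table's short column names were matched to the sample titles by reading HT-SI as siQ61K, the only other siRNA, and PD as poly(dA:dT), the only added agent, which is an inference from names. Entries sharing a symbol (984 of 56227) were left out, so FOXC1, FOXC2 and PECAM1 were not used. Columns summed to 964007 to 967331 TPM. TPM keeps no depth, so no counting interval could be set.

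From the deposited TPM, log2(TPM + 1) was computed for genes reaching 1 TPM in 3 or more libraries. All 12 libraries entered 1 limma 3.58.1 fit (R 4.3.3) with a variance trend, with Benjamini-Hochberg adjustment over all 14722 genes. Standard errors and intervals are those of the model. The fit was tested on simulated data. Alternatives were other pseudocounts (0.1 and 5), other filters (none, or a mean of 5 TPM or more), other scalings (quantile normalization and median-of-ratios), the compared groups fitted alone, a block for replicate number, a lowess correction for the GC content and the length of each gene's longest transcript in GENCODE release 29 (span 0.3, known for 97.1% of tested genes), both together, each library left out, and the pair of siQ61K DMSO replicate 3 with siQ61K poly(dA:dT) replicate 2 left out. The members and lists were chosen with earlier results of these data known. Named genes are the 10 members, NRAS, up to 4 genes per list and comparison that passed with the largest fold change and at least 5 TPM, and the 3 nearest genes of each member that passed. Antisense partners of members were added for the limit on strand. KRT8 levels, CDH4, MITF, PMEL, list genes under 1 TPM and list genes in other comparisons were named after their values were seen.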

Additional observations from a re-analysis of the deposited data

Results flagged for a closer look

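The response of TWIST1 to poly(dA:dT) differed between the siRNAs by a test of the difference itself, the interaction term of the limma model. It was -1.23 on the log2 scale (SE 0.34, adjusted p = 0.0288), from -1.20 under siQ61K and 0.03 under siNC. Corrected for GC content and length it was -0.82 and did not pass (adjusted p = 0.140). It also missed the threshold when any 1 of 6 libraries was left out.

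The response of TWIST2 differed in the same way. Its interaction was -0.70 (SE 0.15, adjusted p = 0.0126), from -0.51 under siQ61K and 0.19 under siNC. All 3 siQ61K libraries with poly(dA:dT) were below all 3 siQ61K libraries with DMSO, and all 3 siNC libraries with poly(dA:dT) were above all 3 siNC libraries with DMSO. Its corrected value was -0.31 (adjusted p = 0.139). The part of the GC trend in either result was not tested further.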

How the results depend on the processing

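Over 23 alternative settings, 912 member values were recomputed and 861 kept their direction, where called in either fit, and their side of the threshold, 39 lost the call, 12 gained one and 0 reversed. Among all named genes, 4674 of 5130 values held, 371 lost the call, 70 gained one and 15 reversed, and 165 more changed sign while called in neither fit. The number of members called in the knockdown with DMSO was 5 after the GC and length correction, also with the replicate block, and 2 to 3 when 1 library was left out. In the knockdown with poly(dA:dT) it was 3 to 7 (3 without siQ61K poly(dA:dT) replicate 3). For poly(dA:dT) under siQ61K it was 1 after the correction, also with the block, 0 without the pair of siQ61K poly(dA:dT) replicate 2 and siQ61K DMSO replicate 3, and 2 to 3 with 1 library left out. For the interaction it was 1 with no filter, 0 after the correction, also with the block, 0 without those 2 libraries, and 1 to 3 with 1 library left out. It was 0 for poly(dA:dT) under siNC throughout. Genes called overall also fell without that pair, to 137 for poly(dA:dT) under siQ61K, against 3712, and to 550 for the interaction, against 2662. The log2 fold changes with poly(dA:dT) under siQ61K were then -1.18 for TWIST1 and -0.48 for TWIST2, against -1.20 and -0.51 with all libraries.

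The replicate block alone changed no member call. The numbers were not taken as pairs, since the labels do not say that they mark a shared culture or day. Same-numbered libraries deviated together at -0.172 to 0.102. In the knockdown with poly(dA:dT) these values were 0.102, 0.051 and 0.1, and for poly(dA:dT) under siQ61K each was 0.054. Libraries of different number gave negative values in both of those comparisons. Deviations from a group mean cancel within the group. Negative values on balance thus follow from the positive same-numbered ones and say nothing more about pairing. Without a filter, calls of CDH2 with DMSO (adjusted p = 0.0621), and of TWIST1 (0.0759) and ZEB1 (0.0880) in the knockdown with poly(dA:dT), were lost. Genes called overall for the interaction fell to 297 after the correction, against 2662, and those for poly(dA:dT) under siQ61K to 1250, against 3712. Median-of-ratios scaling moved the median of all genes for poly(dA:dT) under siQ61K to -0.01, against -0.15. Values that reversed after the correction were, in the knockdown with DMSO, EED (0.01), CTBP1 (-0.10), PKP3 (-0.05) and PLEC (-0.05), for poly(dA:dT) under siQ61K EHMT2 (0.20), for the interaction EHMT2 (0.16) and CTBP1 (0.12), all also with the block, and TUBB3 (0.21) in the knockdown with poly(dA:dT) without it. The cause was not tested. With 3 libraries a group and unknown depth, small differences and genes near 0 TPM stay unresolved.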
